A study of Mus musculus with 34 samples.

Results

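Thy1 (ENSMUSG00000032011.5) is the mouse gene whose regulatory sequences drive the human transgenes of 5xFAD mice. It was taken as the single row with that gene name in the deposited count table, 1 gene of the 55385 listed and of the 17632 with enough counts to be tested. The gene lies on chromosome 9 from 44043384 to 44048579 on the forward strand (GRCm38, GENCODE M21), where it overlaps 0 other annotated genes. Of its 6 annotated transcripts, Thy1-201 has 4 exons and 1735 exonic bases. Its coding sequence takes 486 bases, its 5′ untranslated region 118 and its 3′ untranslated region 1131, which is 65.2% of the transcript.

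Thy1 encodes a small immunoglobulin-like glycoprotein held in the outer leaflet of the cell membrane by a glycosylphosphatidylinositol (GPI) anchor. In the adult mouse brain it is abundant on neurons, projection neurons above all, where it binds integrins on neighbouring glia. Outside neurons it marks mouse T cells and some fibroblasts. Expression cassettes built on the gene keep its promoter and part of its untranslated sequence, put a foreign coding sequence in place of its own, and are active mainly in neurons after birth.

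Poly-A RNA was sequenced from the brain cortex of 34 mice aged 6 months, 1 library per mouse. Carriers of 5xFAD, which bear mutant human transgenes of familial Alzheimer's disease, were set against mice without them, with or without Dp16, a duplicated segment of mouse chromosome 16 used as a model of Down syndrome. Each genotype received the Janus kinase inhibitor tofacitinib by oral gavage at 15 mg/kg each day over 1 month, or the vehicle, 0.5% methylcellulose, on the same schedule. The groups were 5xFAD-Dp16 tofacitinib (4 mice), 5xFAD-Dp16 sham (3), 5xFAD tofacitinib (5), 5xFAD sham (4), Dp16 tofacitinib (5), Dp16 sham (3), and C57BL/6J wild-type tofacitinib (5) and sham (5). Per the series text there were 6 mice in the 5xFAD tofacitinib group and 4 in the 5xFAD-Dp16 sham group; 5 and 3 of them have data here. Carriers numbered 16, of which 7 were female and 9 male, and non-carriers 18, with 9 of each sex. A count per gene does not tell reads of the resident Thy1 gene from reads of Thy1 sequence within the transgenes, so these 2 sources cannot be told apart.

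Libraries held between 16029841 and 21388650 counted reads, and Thy1 itself had between 14218 and 52733 reads. Sequencing dates and batches are not given in the labels. The library 5xFAD tofacitinib 2 stood apart. Its summed level of 8 excitatory neuron markers was 3330 CPM (read counts scaled to library size), against 6731 to 10458 CPM in the 18 non-carriers. Its summed oligodendrocyte marker level was 14094 CPM, above the range of 5906 to 9793 CPM in non-carriers. In bulk tissue, fewer cells of a type and less RNA per cell cannot be told apart. For some of the results that rest on this library, values are also given without it.

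Thy1 was higher in every carrier group than in its counterpart without the transgenes, by 2.01-fold to 2.27-fold. Among sham mice, the 4 5xFAD libraries had 2280, 2054, 1834 and 1503 CPM, against 885, 932, 897, 858 and 932 CPM in the 5 wild-type libraries. Under tofacitinib, the 5xFAD libraries had 2572, 1427, 1740, 1739 and 1520 CPM, against 912, 891, 824, 848 and 933 CPM in wild-type. In both settings every carrier library lay above every wild-type library, and the carriers were spread over a much wider interval.

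The same separation was present on the Dp16 background. Sham 5xFAD-Dp16 libraries had 1963, 2420 and 1918 CPM, against 952, 936 and 885 CPM in Dp16. Tofacitinib-treated 5xFAD-Dp16 libraries had 1862, 1941, 1575 and 1727 CPM, against 931, 902, 946, 846 and 831 CPM in Dp16. Over the whole series the lowest carrier library, 5xFAD tofacitinib 2, was 1.5 times the highest non-carrier library.

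**Figure D1:**
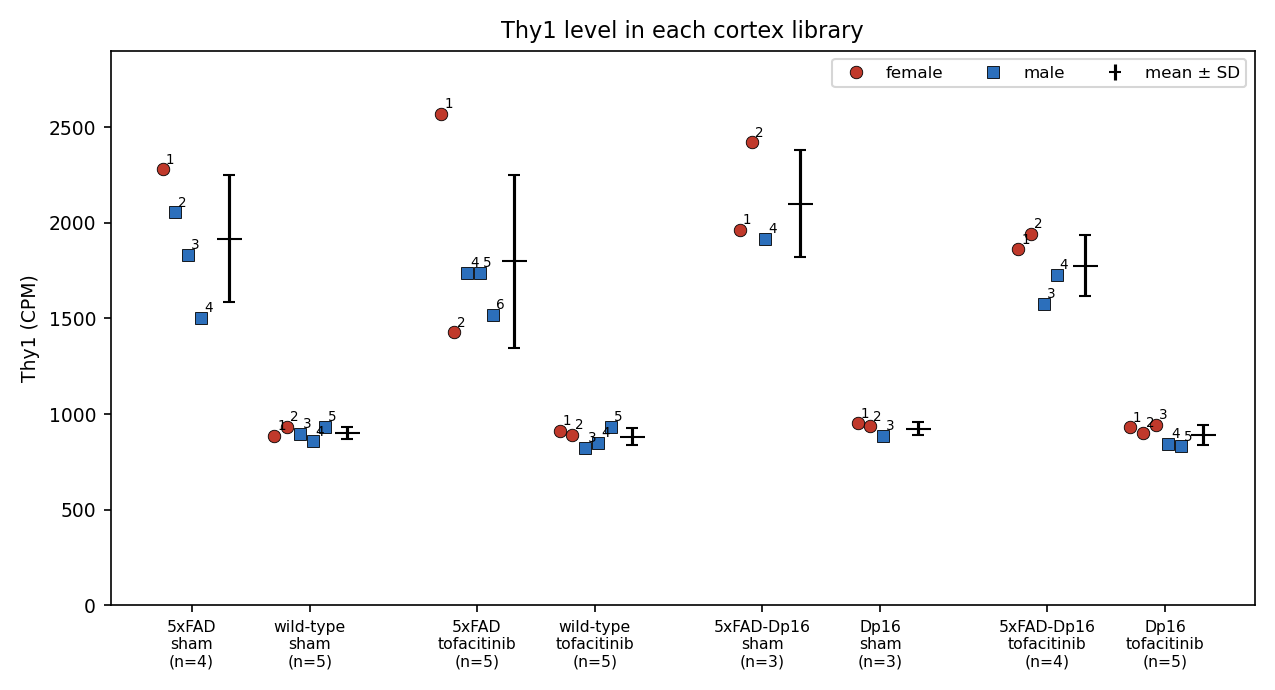
Thy1 in CPM (vertical axis, from 0) for each library, numbered by replicate, with females as circles and males as squares and the mean ± SD of each group beside its points. Carrier libraries lie between 1427 and 2572 CPM and non-carrier libraries between 824 and 952 CPM, with no overlap in any of the 4 pairs of groups.

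Averaged over groups, Thy1 was 2.11-fold higher in carriers than in non-carriers (log2 difference 1.08, SE 0.0573, 95% interval 1.95-fold to 2.30-fold, edgeR quasi-likelihood adjusted p = 5.65e-15). Carriers averaged 1880 ± 327 CPM (SD, n = 16) and non-carriers 897 ± 41.0 CPM (SD, n = 18). In that comparison 76 genes, 0.431% of those tested, passed an adjusted p under 0.05, and Thy1 had the smallest p of all. The group values were close to one another. The difference was 1.11 for 5xFAD against wild-type among sham mice (SE 0.109, adjusted p = 1.86e-07) and 1.02 under tofacitinib (SE 0.104, adjusted p = 3.93e-07). For 5xFAD-Dp16 against Dp16 it was 1.18 among sham mice (SE 0.134, adjusted p = 6.26e-06) and 1.01 under tofacitinib (SE 0.109, adjusted p = 1.76e-06).

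In the 4 pairwise comparisons Thy1 again had the smallest p. It was the single gene called with edgeR in 5xFAD against wild-type sham (0.00567% of genes tested) and in both comparisons of 5xFAD-Dp16 with Dp16 (0.00567% each). Under tofacitinib, 5xFAD against wild-type called 2 genes (0.0113%), Thy1 and Clec7a, a lectin receptor of microglia. When only the 5xFAD and wild-type tofacitinib libraries were fitted, the Thy1 difference was 1.03 and missed the threshold (unadjusted p = 2.59e-05, adjusted p = 0.369). The number of other genes called depended on single libraries and on the tool, whereas Thy1 passed in the 5xFAD against wild-type sham and pooled comparisons under every library left out. In 5xFAD against wild-type sham it was 2008 without wild-type sham 3, 1625 without wild-type tofacitinib 1, 873 without 5xFAD tofacitinib 1, 507 without 5xFAD tofacitinib 2, and 7 or fewer without any other library. DESeq2 called 1532 genes there. In the pooled comparison the count ran between 14, without Dp16 sham 2, and 322, without 5xFAD tofacitinib 2.

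On a scale per length of gene, Thy1 averaged 1004 ± 162 RPKM (reads scaled by gene length and library total) in carriers (SD, n = 16) and 475 ± 26.2 RPKM in non-carriers (SD, n = 18). It ranked between 17 and 44 among all genes by RPKM in carrier libraries and between 63 and 134 in non-carrier libraries. Of all counted reads, it took 0.152% to 0.254% in carriers and 0.0809% to 0.0975% in non-carriers. The highest library was 5xFAD tofacitinib 1 in CPM, in RPKM and in share of reads. The lowest carrier was 5xFAD tofacitinib 2 in CPM, and 5xFAD sham 4 in RPKM (809 RPKM, against 841 RPKM in 5xFAD tofacitinib 2).

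By group mean, the order of the 8 groups was 5xFAD-Dp16 sham (2100 ± 278 CPM, SD, n = 3), 5xFAD sham (1918 ± 331, n = 4), 5xFAD tofacitinib (1800 ± 453, n = 5), 5xFAD-Dp16 tofacitinib (1776 ± 160, n = 4), Dp16 sham (924 ± 35.0, n = 3), wild-type sham (901 ± 31.7, n = 5), Dp16 tofacitinib (891 ± 50.8, n = 5) and wild-type tofacitinib (882 ± 45.2, n = 5). Neighbours in this order overlapped in every case but 1. The exception was the step between 5xFAD-Dp16 tofacitinib, whose lowest library had 1575 CPM, and Dp16 sham, whose highest had 952 CPM.

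The duplicated segment was not accompanied by a detectable difference in Thy1, which lies on another chromosome. In 5xFAD-Dp16 against 5xFAD the log2 difference was 0.07 among sham mice (95% interval -0.19 to 0.33) and -0.03 under tofacitinib (-0.26 to 0.19). In Dp16 against wild-type it was -0.01 among sham mice (-0.25 to 0.24) and -0.02 under tofacitinib (-0.23 to 0.19). The edgeR adjusted p was 0.968 or more in all 4, in which 0.102%, 0.238%, 0.21% and 0.255% of genes were called. The difference of the carrier effects with and without Dp16 was 0.03 (95% interval -0.20 to 0.26, adjusted p = 0.996), in a comparison with 0.00567% of genes called.

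Tofacitinib against sham gave a negative difference in all 4 genotypes, none of which passed. The log2 difference was -0.22 in 5xFAD-Dp16 (95% interval -0.47 to 0.04, edgeR adjusted p = 0.999) and -0.11 in 5xFAD (-0.34 to 0.11, adjusted p = 0.608). It was -0.04 in Dp16 (-0.29 to 0.20) and -0.03 in wild-type (-0.24 to 0.18). The 5xFAD value was -0.25 without 5xFAD tofacitinib 1 (adjusted p = 0.0851) and -0.025 without 5xFAD tofacitinib 2 (adjusted p = 0.947). The intervals in carriers reach down to 0.721-fold in 5xFAD-Dp16 and 0.791-fold in 5xFAD. The test of whether the drug difference itself was altered by the transgenes gave -0.13 (95% interval -0.36 to 0.11, adjusted p = 0.584). With edgeR, 0 genes (0.0%) were called in each of the 4 drug comparisons. At an unadjusted p under 0.05 there were 322 genes in 5xFAD-Dp16, 2592 in 5xFAD, 357 in Dp16 and 1276 in wild-type, while DESeq2 called 0, 0, 1 and 2 genes and limma-voom 0, 3038, 0 and 0 in that order. In the drug interaction edgeR called 0 genes (0.0%), with 2517 at an unadjusted p under 0.05, DESeq2 called 0 and limma-voom 3771.

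**Figure D2:**
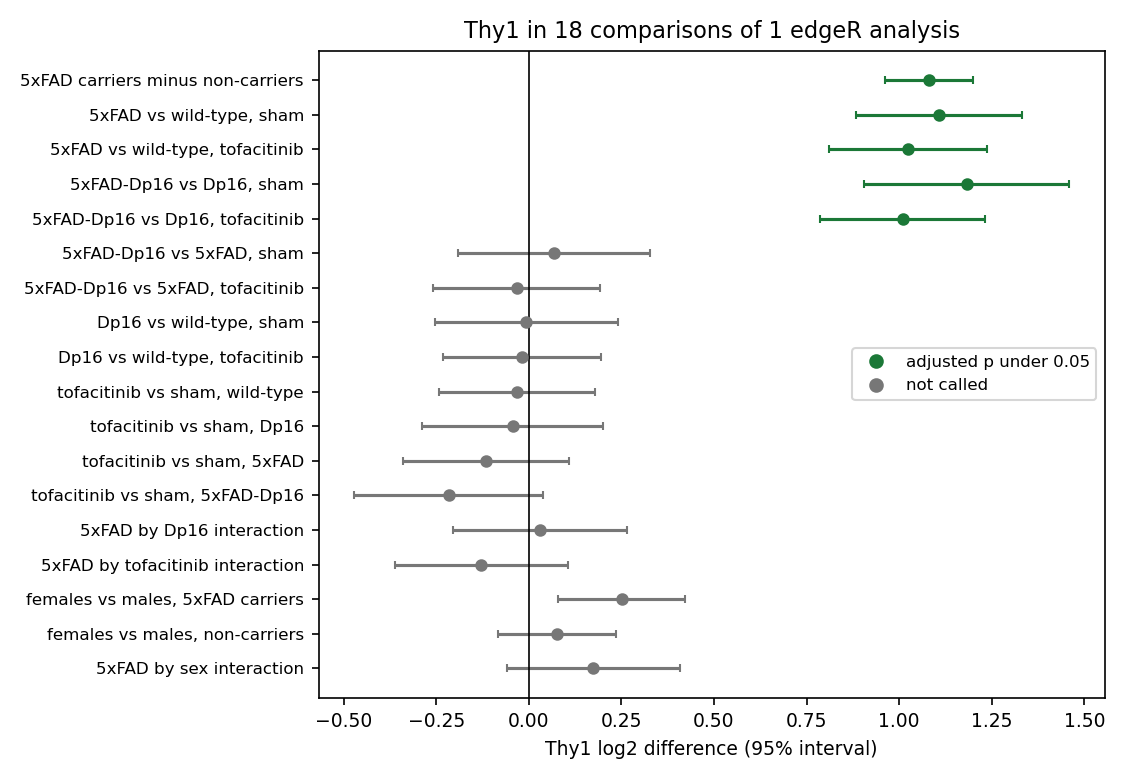
Log2 difference of Thy1 with its 95% interval in 18 comparisons, the first group named minus the second; green points passed an adjusted p under 0.05. The 5 comparisons of carriers with non-carriers lie between 1.01 and 1.18, and the other 13 were not called.

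Thy1 varied more from mouse to mouse in carriers than in non-carriers. Its coefficient of variation was 17.4% over 16 carriers and 4.57% over 18 non-carriers. Relative to libraries of the same carrier status and sex, the mean absolute deviation in log2 CPM was 0.159 in carriers and 0.0446 in non-carriers, a difference of 0.114 (two-sided permutation test with 100000 resamples, p = 0.00023). Without 5xFAD tofacitinib 2 the difference was 0.0906 (permutation p = 0.00011). Taken above the non-carrier mean, the excess of carriers averaged 983 CPM and ran between 531 and 1675 CPM, a 3.16-fold range. The lowest excess was that of 5xFAD tofacitinib 2, and the next lowest was 607 CPM in 5xFAD sham 4.

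Set against other abundant genes, the spread of Thy1 was low in non-carriers. Among the 247 genes that averaged 500 CPM or more, 94.7% had a larger SD than Thy1 in non-carriers (0.0666 in log2 CPM, against a median of 0.170 over these genes). In carriers 31.2% had a larger SD (0.244, against a median of 0.197). When Thy1 was expressed relative to the mean log2 level of 12 pan-neuronal markers, a scale chosen after the data were seen, the difference in spread was 0.0221 and did not pass (permutation p = 0.304). On that scale the levels of carriers (1.60 ± 0.175, SD, n = 16) and non-carriers (0.560 ± 0.0902, SD, n = 18) still did not overlap, with ranges of 1.32 to 1.92 and 0.358 to 0.667.

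Among carriers, the mean of females lay above that of males, and whether this passed depended on 1 library. Females had a lowest value of 1427 CPM, a median of 1963 and a highest of 2572, against 1503, 1739 and 2054 in males. Means were 2066 ± 388 CPM (SD, n = 7) in females and 1735 ± 184 CPM (SD, n = 9) in males. The lowest and the highest carrier by CPM were both females of the 5xFAD tofacitinib group, replicates 2 and 1. The log2 difference was 0.25 (SE 0.0831, 95% interval 0.08 to 0.42). It did not pass across all genes (unadjusted p = 0.00504, edgeR adjusted p = 1.00), where 0.0397% of genes were called. A two-sided exact permutation test of the same libraries, without a term for group, gave p = 0.0532 over 11440 arrangements. Without 5xFAD tofacitinib 2 the edgeR difference was 0.34 with an adjusted p of 0.0405.

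Among non-carriers, females averaged 921 ± 23.9 CPM and males 873 ± 41.1 CPM (SD, n = 9 each). The edgeR difference was 0.08 and was not called (adjusted p = 0.936), with 0.0681% of genes called. The exact permutation test without a term for group gave p = 0.00938 over 48620 arrangements. The difference between the sex differences of carriers and non-carriers was 0.17 (95% interval -0.06 to 0.41, unadjusted p = 0.135, adjusted p = 1), and without 5xFAD tofacitinib 2 it was 0.26 (unadjusted p = 0.00709, adjusted p = 0.926). In this interaction edgeR called 0 genes (0.0%), with 552 at an unadjusted p under 0.05, and DESeq2 and limma-voom called 0. Relative to the pan-neuronal markers, carrier females had 1.738 ± 0.136 and carrier males 1.496 ± 0.120 (SD, log2 scale), a difference of 0.24 (exact permutation p = 0.00192). This test was added after the data were seen and, unlike the edgeR calls, was not adjusted over genes.

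**Figure D3:**
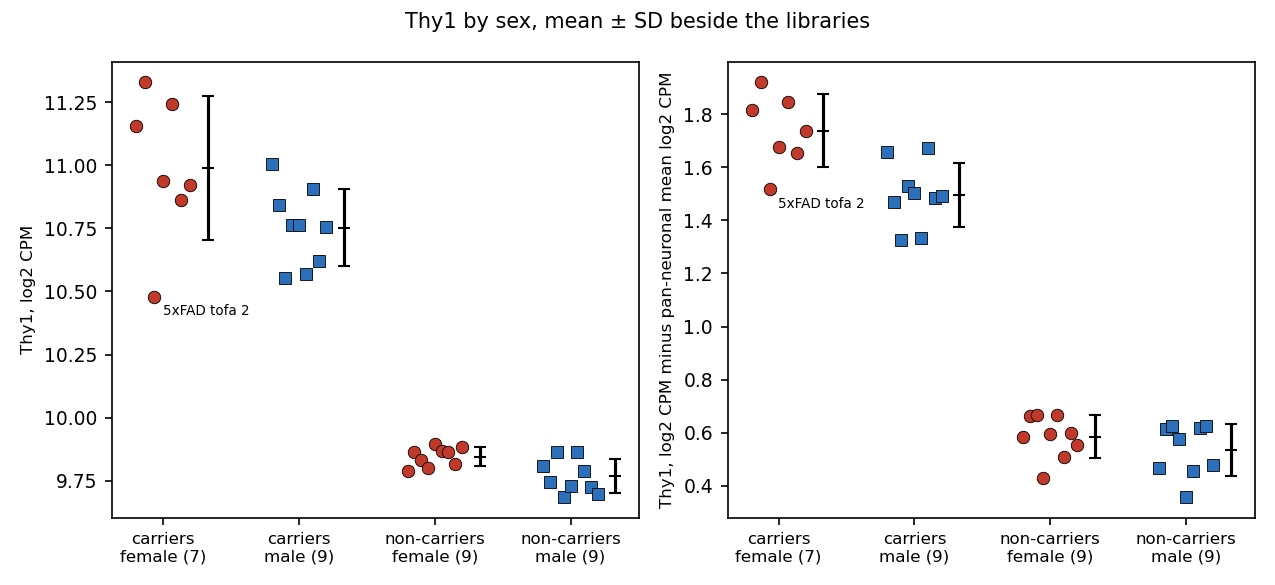
Thy1 by carrier status and sex, in log2 CPM (left) and as log2 CPM minus the mean log2 CPM of 12 pan-neuronal markers (right), with the mean ± SD beside the points; neither vertical axis starts at 0. 5xFAD tofacitinib 2 is the lowest carrier on the left (1427 CPM) and lies within the range of carrier males on the right.

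The mouse gene App, which encodes the amyloid precursor protein, has a human counterpart among the transgenes. Whether reads of that human transgene were counted as mouse App was not tested. App was not called in carriers against non-carriers. App had a lowest value of 1258 CPM, a median of 1947 and a highest of 2788 in carriers, against 1343, 1865 and 2545 CPM in non-carriers (log2 difference 0.10, edgeR adjusted p = 0.393). App lies in the Dp16 segment, and its group means were 2582 ± 191 CPM in 5xFAD-Dp16 sham and 1823 ± 98.5 CPM in 5xFAD sham.

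Within carriers, App deviated in the same direction as Thy1. After the mean of the same genotype and sex was removed, Thy1 correlated with App at r = 0.84 and rho = 0.76 (n = 16, permutation p = 0.00238 for r and 0.00552 for rho, adjusted p = 0.00357 over 3 relations). Without the 2 libraries farthest from the median of Thy1, 5xFAD tofacitinib 1 and 5xFAD-Dp16 sham 2, App had r = 0.76 and missed the threshold (permutation p = 0.046, adjusted p = 0.0691). Without 5xFAD tofacitinib 2, r was 0.68 (adjusted p = 0.0246). By sex, r was 0.97 in the 7 females and 0.59 in the 9 males, and these values were not tested.

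Such relations were common among carriers. Of 14474 genes averaging 1 CPM or more, 4.57% had an r with Thy1 at or above that of App. In carriers 27.7% of genes had an r above 0.5, against 3.50% in non-carriers, where r was 0.32 for App. Across genes, which are not independent replicates, r with Thy1 went with gene length in carriers (rho 0.51) and hardly in non-carriers (rho 0.05). Genes longer than 5060 bases had a median r of 0.52 in carriers, and genes shorter than 2080 bases one of -0.53. A per-library length index, the long genes' level relative to the short genes', deviated with Thy1 among carriers at r = 0.82 and rho = 0.77 (permutation p = 0.00381 and 0.00596), a relation added after the data were seen. This index restates the length pattern above in the same libraries, so its p-values are not a separate test. Without the 2 farthest libraries its r was 0.76 (permutation p = 0.0533). Without 5xFAD tofacitinib 2 it was 0.66 with a rho of 0.61 (permutation p = 0.0226 and 0.0527). The part of this index in the relation of App was not tested.

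The plaque-induced microglial list, 16 genes that microglia raise around amyloid plaques, had no called relation with Thy1. The mean log2 level of the list gave r = 0.00 and rho = 0.14 over the 16 carriers (permutation p = 0.997 and 0.658). Without 5xFAD tofacitinib 2, r was 0.47 and rho 0.41 (permutation p = 0.137 and 0.210). By sex, r was -0.57 in the 7 carrier females, which include 5xFAD tofacitinib 2, and 0.66 in the 9 carrier males. The values by sex were not tested. Cst7, a cystatin of plaque-associated microglia, was at its highest level of 14.2 CPM in 5xFAD tofacitinib 2, the carrier lowest in Thy1 by CPM. In 5xFAD sham 4, with 1503 CPM of Thy1, Cst7 had 1 read.

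**Figure D4:**
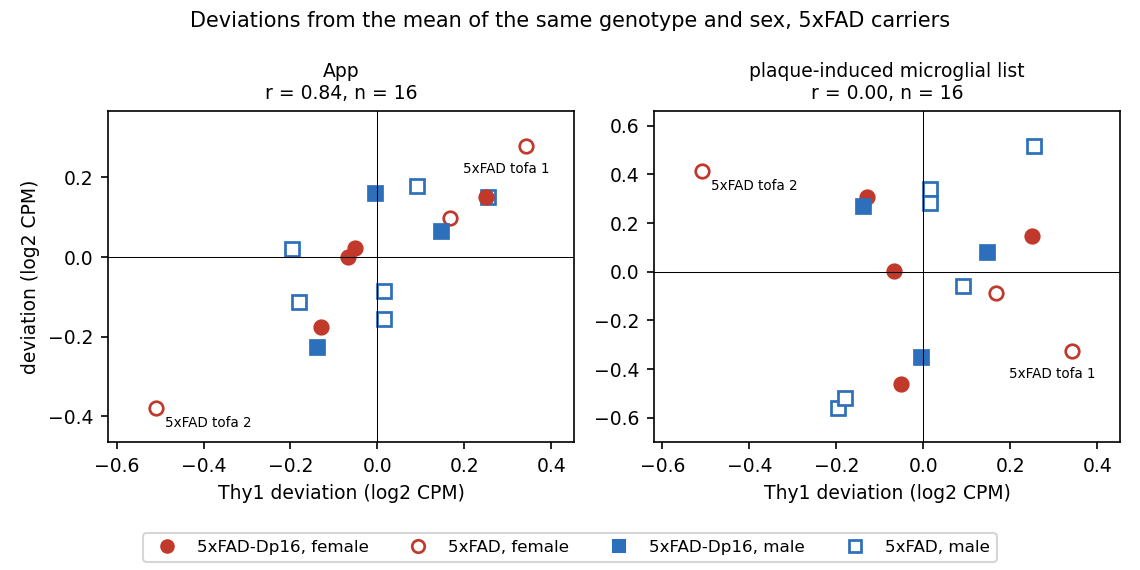
Deviations of App and the plaque-induced microglial list (vertical axes) against those of Thy1 (horizontal axes) in log2 CPM for the 16 carriers, each from the mean of its genotype and sex. App (r = 0.84) deviates with Thy1, and the list has r = 0.00 with 5xFAD tofacitinib 2 and 0.47 without it.

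No tested gene that shares the GPI anchor of Thy1 or helps make it was called with edgeR in all libraries together. Of 30 other GPI-anchored surface proteins of neurons, 0 were called in carriers against non-carriers with edgeR, beside 0.204% of all genes called higher and 0.227% called lower. At an unadjusted p under 0.05 there were 4, beside 3554 of all 17632 genes tested, and DESeq2 and limma-voom called 0. The median log2 difference was 0.07, against 0.00331 over all genes tested, and 23 of the 30 lay above 0. The members with the highest RPKM were Prnp, the prion protein gene (log2 difference -0.05), and Nrn1, which encodes neuritin (-0.09). Of 26 tested genes of GPI anchor synthesis and transfer, 0 were called with edgeR (8 at an unadjusted p under 0.05) and the median was 0.02. Gpaa1, a transamidase subunit gene, was called higher by DESeq2, which gave no adjusted p for 6 of the 26, by limma-voom and by edgeR without 5xFAD tofacitinib 2. Each of these settings also called more of all genes than edgeR in all libraries. Pigt and Pigq, which encode subunits of the transamidase and of the first transferase of the pathway, differed by 0.17 and 0.08.

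Of 16 binding partners and membrane raft kinases of Thy1, 2 were called higher and 0 lower with edgeR. Of all genes tested, 0.204% were called higher and 0.227% lower. The list median was 0.06. The integrin chain Itgax was at 1.40 ± 0.978 CPM in carriers and 0.292 ± 0.250 CPM in non-carriers (log2 difference 2.29, edgeR adjusted p = 0.0015). Its partner chain Itgb2 was at 9.31 ± 2.08 CPM in carriers and 6.86 ± 1.11 CPM in non-carriers (0.45, adjusted p = 0.0381). Both are integrin chains of leukocytes and microglia, and Itgax also belongs to the plaque-induced list. Sdc4, a syndecan that binds Thy1 together with integrins, differed by -0.15, and Fyn, a kinase of neuronal rafts, by 0.02. Without 5xFAD tofacitinib 2 the integrin chain Itgb5 was called as well, for a count of 3. DESeq2 called Itgb2 and Itgb5 and gave no adjusted p for 3 members. Limma-voom called Itgax, Itgb5 and Itga5, so neither tool called both Itgax and Itgb2. These tools, and edgeR without 5xFAD tofacitinib 2, each called more of all genes than the main analysis.

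With edgeR no neuronal marker was called in all libraries together, beside 0.431% of all genes tested. Of 12 pan-neuronal, 8 excitatory, 8 layer 5 projection and 8 inhibitory neuron markers, 0 were called with edgeR (2, 0, 2 and 3 at an unadjusted p under 0.05), with medians of 0.03, 0.04, -0.02 and 0.04. At that unadjusted threshold 3554 of all 17632 genes tested passed. Summed pan-neuronal levels were 7957 to 11986 CPM in carriers and 9677 to 12453 CPM in non-carriers. The lowest carrier value was that of 5xFAD tofacitinib 2. Snap25, a synaptic fusion protein, differed by -0.10 and Uchl1, a neuronal deubiquitinase, by -0.13. Nrgn and Camk2a, both of excitatory neurons, differed by 0.01 and 0.06. Pcp4 and Crym of layer 5 differed by -0.35 and -0.04, and the interneuron genes Sst and Pvalb by -0.19 and -0.25. Sst was called lower by DESeq2, by limma-voom and by edgeR without 5xFAD tofacitinib 2, and limma-voom called Gad1 higher. In each of these settings more of all genes were called than in the main analysis. DESeq2 and limma-voom called 0 of the other neuronal markers.

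Markers of the other cells that carry Thy1 were low, and none of those tested was called where edgeR called 0.431% of all genes. At an unadjusted p under 0.05, edgeR had 3554 of all 17632 genes tested. The 8 T cell markers summed to 15.6 to 41.1 CPM in carriers and 16.4 to 48.4 CPM in non-carriers, and 3 of them had enough counts to be tested. Of these 0 were called with edgeR, DESeq2 or limma-voom (1 at an unadjusted p under 0.05 with edgeR; 1 without a DESeq2 adjusted p), and Trbc2 and Cd4 differed by -0.27 and -0.10. The 8 fibroblast markers summed to 78.0 to 155 CPM in carriers and 67.9 to 129 CPM in non-carriers, with 0 called with any of these tools (2 at an unadjusted p under 0.05 with edgeR; 4 without a DESeq2 adjusted p). Their median was 0.18, and Dcn and Pdgfra, which oligodendrocyte precursors also express, differed by -0.01 and 0.09. The 155 CPM was in 5xFAD tofacitinib 2, and without this library the fibroblast median was 0.11. The part of these cells in the Thy1 difference was not tested.

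Of 6 endothelial, 7 astrocyte, 7 oligodendrocyte, 9 striatum and 7 hippocampus markers, 0 were called with edgeR, beside 0.431% of all genes tested. In that order, 1, 1, 0, 0 and 0 had an unadjusted p under 0.05, beside 3554 of all 17632 genes tested. DESeq2 gave no adjusted p for 5 of the hippocampus markers. The medians of the 5 lists were 0.03, 0.04, -0.10, -0.13 and 0.19. Without 5xFAD tofacitinib 2 the oligodendrocyte median was -0.17 and the hippocampus median -0.33. Of the 7 oligodendrocyte markers, 5 then had an unadjusted p under 0.05 with edgeR, and 0 were called. The count over all genes at that unadjusted threshold without 5xFAD tofacitinib 2 is not given here. Cldn5 and Ly6c1 of endothelium differed by -0.04 and -0.26, and Ly6c1 was called lower by DESeq2, by limma-voom and by edgeR without 5xFAD tofacitinib 2. All of these settings called more genes than the main analysis. Aldoc and Slc1a2 of astrocytes differed by -0.07 and 0.05, and Mbp of myelin by -0.10. Penk and Ppp1r1b, abundant in striatum, differed by -0.31 and -0.13, and Neurod1 and C1ql2, used as hippocampal markers, by 0.16 and 0.39.

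Of the 16 plaque-induced genes, 7 were called higher and 0 lower with edgeR, beside 0.204% and 0.227% of all genes tested. The list median was 0.34. The 7 were Cst7 (log2 difference 5.42), Clec7a (2.56), Itgax (2.29), the chemokine Ccl6 (1.36), the lysosomal membrane protein Cd68 (0.56) and the cathepsins Ctsd (0.31) and Ctsz (0.28). The same 7 were called without 5xFAD tofacitinib 2. DESeq2 called 4, which were Ctsd, Ctsz, Cd68 and the growth factor gene Csf1, and gave no adjusted p for 7. Limma-voom called 7, which were Clec7a, Itgax, Ccl6, Cd68, Ctsd, Ctsz and the lipase gene Lpl. Cst7 was called by neither. Cst7 averaged 6.09 ± 4.32 CPM in carriers and 0.186 ± 0.274 CPM in non-carriers (SD, n = 16 and 18).

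**Figure D5:**
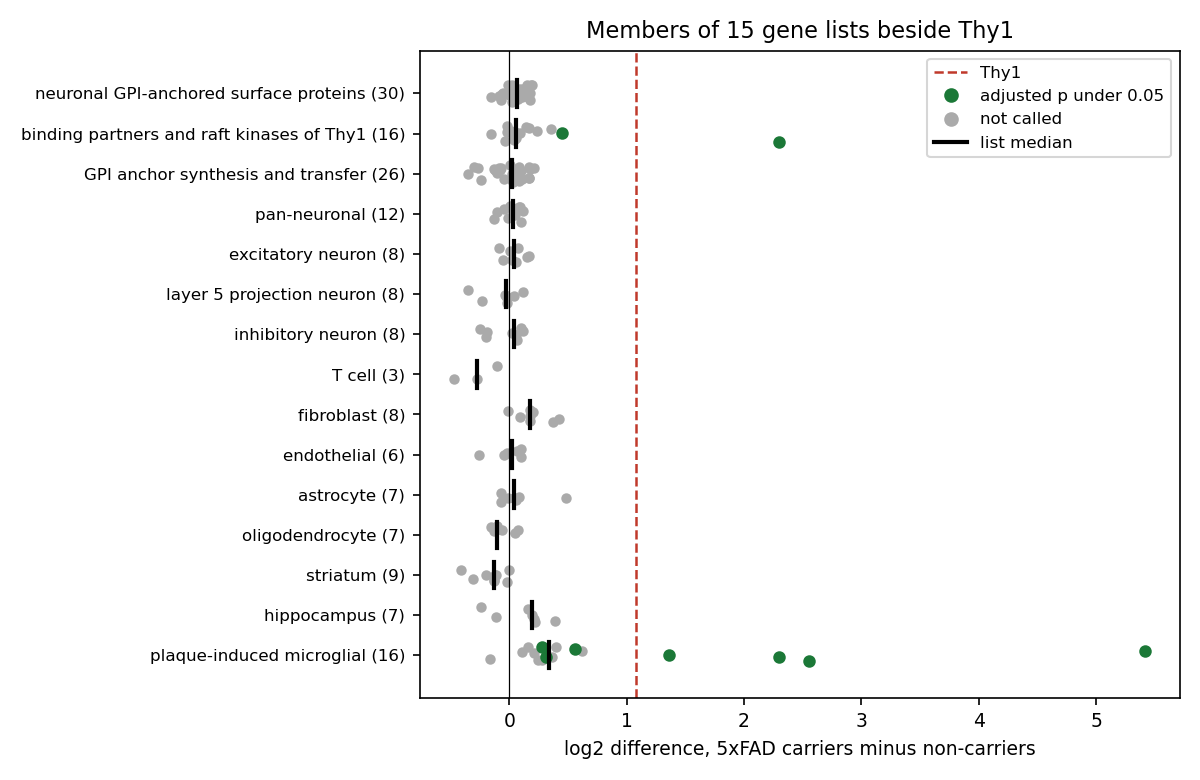
Log2 difference, carriers minus non-carriers, for the tested members of 15 gene lists (number tested in parentheses), with the list median as a black bar and Thy1 as a dashed line at 1.08. Green points passed an adjusted p under 0.05; they lie in the plaque-induced list and among the binding partners of Thy1.

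None of the 10 chromosomal neighbours taken for Thy1 was called between carriers and non-carriers, beside 0.431% of all genes in the pooled comparison. They were sought among the 54487 of 55385 listed genes with a position in GENCODE M21. Nearer tested genes without such a position may be missing. Of the 5 tested genes with a position nearest on each side, 0 were called with edgeR in any of the 5 comparisons of carriers with non-carriers. Their log2 differences in the pooled comparison lay between -0.45 and 0.72 with a median of 0.01, and the smallest adjusted p was 0.415. None had an unadjusted p under 0.05 in it, where 3554 of all 17632 genes tested did. Limma-voom called 0, and DESeq2 called 0 but gave no adjusted p for 9 of the 10. Gm39323, an uncharacterised gene 2.33 kb before Thy1, averaged 0.313 ± 0.196 CPM in carriers and 0.335 ± 0.220 CPM in non-carriers. Usp2, a deubiquitinase gene 18.4 kb after it, averaged 64.3 ± 13.3 CPM in carriers and 60.6 ± 9.28 CPM in non-carriers (log2 difference 0.09, adjusted p = 0.554). D630033O11Rik, Trim29, Gm36855 and Gm30015 lay further before Thy1, and Rnf26, Mfrp, Gm26737 and Gm10687 further after it. Apart from Usp2, Rnf26, Mfrp and Gm10687, these genes averaged under 1 CPM in carriers and in non-carriers. At such levels the test has little power.

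The genes whose levels were most like those of Thy1 depended on the mice compared. They were picked for the highest Pearson r of log2 CPM among 14474 genes, so r is a description. Means of genotype and sex were not removed here, so these r are on another scale than those of App above. On the present scale App had r = 0.52 over the 16 carriers. Over all 34 libraries, in which the carrier difference sets much of the order, they were Cst7 (r = 0.83), Grn, which encodes progranulin (0.78), Clec7a (0.75), Cd68 (0.74) and the interferon-induced gene Oasl2 (0.72). Over the 16 carriers alone they were Dpysl2, a regulator of axon growth (0.90), the unconventional myosin Myo1e (0.89), the RNA-binding protein Stau1 (0.89), the splicing factor Sfpq (0.88) and Mfsd6 (0.88). Over the 18 non-carriers, 4 of the 5 were the secreted metalloprotease Adamts10 (0.74), the proton pump subunit Atp6v1d (0.74), the adaptor protein Ywhah (0.74) and the stress-activated kinase Mapk8 (0.73). The 3 sets had no gene in common, which is the usual outcome for sets of 5 genes out of 14474.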

How the data were processed

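Poly-A libraries of 34 mouse cortices were made with a strand-specific kit and read as paired 150-base ends, per the labels' protocols. The counts deposited by the authors are whole reads per gene. The submitters' processing notes name bcl2fastq, FastQC 0.11.5, HISAT2 2.1.0, SAMtools 1.5, HTSeq 0.6.1 and build GRCm38. The strand setting of the counting is not given in the sources used here. The RPKM values deposited by the authors are scaled by gene length and column total and served for levels per length.

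The tests on counts used edgeR 4.0.16 (R 4.3.3). Genes were kept by filterByExpr over the 8 groups, and libraries were scaled by TMM. A robust quasi-likelihood fit of 34 libraries held terms for group and sex, and a second fit had a sex term for carriers and another for non-carriers. Tests were two-sided, with Benjamini-Hochberg adjustment over 17632 genes within a comparison. Intervals used the t distribution with 25 degrees of freedom. CPM used TMM-scaled totals. Spread and correlations were tested by permutation with 100000 resamples, correlations within genotype and sex.

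Thy1, the 15 gene lists and the tests were chosen with earlier results of these data known. Named genes were Thy1, App, the 5 nearest tested genes with a GENCODE M21 position on each side, the 5 genes most like Thy1 over each of 3 sets of libraries, and of each list the members called or else the 2 with the highest RPKM. Some results, among them 1 of the 3 relations over which p-values were adjusted, are not reported here. Cst7 by mouse, Sdc4, Fyn and members called under an alternative alone were added after their values were seen. The fit was tested on simulated data. As alternatives, limma-voom with sample weights (limma 3.58.1), DESeq2 1.42.0, no low-count filter, other scalings, a replicate block, no sex term and fits of only the groups compared were run, and libraries were left out 1 at a time. No 2 libraries had identical counts. Replicates were separate mice. Their numbers did not pair them: same-numbered libraries had a median correlation of 0.014.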

Additional observations from a re-analysis of the deposited data

Results flagged for a closer look

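Thy1 in 5xFAD tofacitinib 1 was 2572 CPM, far from the other 4 libraries of its group, which lay between 1427 and 1740 CPM. The gap to the nearest library was 0.727 of the group's range, above the 5% limit of 0.71 for 5 libraries. Chance alone passes such a limit in about 1 of 20 groups, and 12 such tests were made over Thy1 and App together.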

How the results depend on the processing

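Thy1 passed in carriers against non-carriers under all 8 other settings (log2 difference 1.07 to 1.10) and with each of 34 libraries left out (1.04 to 1.11). It passed in the 4 pairs of groups too, except in 5xFAD against wild-type under tofacitinib with only the groups compared (1.03). Differences near 0 changed sign. In 5xFAD-Dp16 against 5xFAD, limma-voom gave 0.023 under tofacitinib, and leaving out a library gave -0.13 to 0.11 there and -0.016 to 0.13 among sham mice. In Dp16 against wild-type sham, the value was 0.037 with no sex term, 0.018 with only the groups compared and -0.048 to 0.021 with a library left out. Under tofacitinib it was 0.015 with no sex term and -0.040 to 0.019 with a library left out. The 5xFAD by Dp16 interaction was -0.0050 without wild-type sham 2 and 5xFAD tofacitinib 2, and -0.018 to 0.10 with a library left out. The sex difference of carriers passed across all genes without those 2 libraries (0.34), and was 0.14 to 0.34 when a library was left out. Relative to pan-neuronal markers (0.24) it passed only by a permutation test that is not adjusted over genes. The sex difference of non-carriers (0.078) likewise passed only by such a permutation test. The spread relative to pan-neuronal markers (0.022) and the relation with App without the 2 farthest libraries (0.76) did not pass. The relation with the plaque-induced list gave r of -0.16 to 0.47 with a library left out. The cause was not tested for any of these.

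Low replicate numbers were mostly females and high ones males, so a term for replicate number overlaps sex and cannot decide on the sex differences. The replicate block, for numbers that do not pair the mice (median r 0.014 for the same number and -0.002 for different numbers), gave 0.0062 in Dp16 against wild-type under tofacitinib, -0.0053 for the sex difference of non-carriers and 1.09 for Thy1 in carriers against non-carriers. It lowered the genes called in that comparison to 17. The other settings gave 512 with DESeq2, 589 with limma-voom and 1358 with no low-count filter, against 76 in the main analysis. List members called under a setting are to be read beside the count of that setting. For the 4 pairs, in the order 5xFAD sham, 5xFAD tofacitinib, 5xFAD-Dp16 sham and 5xFAD-Dp16 tofacitinib, the main counts of 1, 2, 1 and 1 became 1532, 5, 2 and 2 with DESeq2, 2806, 424, 45 and 3 with limma-voom, and 1784, 76, 52 and 111 with no filter. With at least 14218 reads of Thy1 per library, counting error is small beside the spread between mice.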
